A study of Mus musculus with 19 samples.

Results

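Matrix remodelling was described here through 8 genes, *Mmp12*, *Mmp13*, *Mmp14*, *Timp1*, *Timp2*, *Plau*, *Plaur* and *Thbs1*, out of the 56980 genes in the count table. The genes were chosen from earlier results on these same libraries, in which they were noted for their response to LPS. Their LPS response is therefore a description from which nothing is concluded. Where a rule with an adjusted p-value is applied to it below, nothing is read from the calls. All 8 were found in the table by their symbols, and all 8 passed the filter on low counts that left 18739 genes for testing. *Timp1*, with 0 to 3 counts in each baseline library, passed it only through the LPS groups, where it is high. The libraries came from CD11b+ cells, isolated from the brain by magnetic sorting (MACS) with an antibody against CD11b, an integrin chain that microglia, monocytes and neutrophils carry on their surface. The 19 mice were males of 3 to 4 months, either carrying the gene trap Gt(XE726)Byg in *Park7* (*PARK7*/DJ-1 KO, on a C57BL/6NCrl background) or wildtype littermates. They received 1 intraperitoneal injection of LPS at 4 μg/g body weight or of PBS, and the cells were collected 6 h later. There were 5 wildtype and 5 KO mice with LPS, and 4 wildtype and 5 KO mice with PBS, which is called baseline below. The gene trap is carried in the germline, so the loss of DJ-1 was not limited to microglia.

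The extracellular matrix of the brain is cut by matrix metalloproteinases, zinc-dependent proteases that are made as inactive precursors and held in check by the tissue inhibitors of metalloproteinases. MMP12 is the macrophage elastase, MMP13 a collagenase and MMP14 a membrane-bound protease that activates proMMP2, for which TIMP2 also serves as an adaptor at the cell surface. Urokinase, the product of *Plau*, bound to its receptor PLAUR on the cell surface, turns plasminogen into plasmin, which degrades fibrin and can activate metalloproteinase precursors. Thrombospondin 1, the product of *Thbs1*, is a secreted matrix glycoprotein that binds CD36 and CD47 and can activate latent TGF-β.

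On GRCm39, *Mmp13* lies on chromosome 9 at 7272514 to 7283331 and *Mmp12* on the same strand at 7344381 to 7369499, 61.1 kb further on. They are the 2 neighbouring members of a cluster of 10 metalloproteinase genes whose starts span 420 kb. *Mmp14* is on chromosome 14 at 54668878 to 54682821, *Plau* on chromosome 14 at 20886722 to 20893453, *Plaur* on chromosome 7 at 24161875 to 24175394 and *Thbs1* on chromosome 2 at 117941974 to 117957616, all on the plus strand. *Timp2* is on the minus strand of chromosome 11 at 118191887 to 118246566. *Timp1*, on chromosome X at 20736316 to 20740976, lies wholly within the span of *Syn1* on the opposite strand, and the 3′ end of *Mmp12* overlaps *Mmp1b* on the opposite strand by 1261 bases. *Mmp1b* had at most 1 count in any library, while *Syn1* had 7 to 232 counts. The strand setting of the count step is not given in the sources used here, so reads of overlapping genes on opposite strands may not be told apart. On the same strand, where no strand setting helps, *Timp2* overlaps *Cep295nl* by 10197 bases (18 to 179 counts) and *Mmp14* overlaps *Gm56768* by 919 bases (2 to 65 counts).

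The 250 bases before the annotated start of each gene's canonical transcript were searched on both strands for short motifs of factors that respond to LPS. The AP-1 motif, TGANTCA, was found before 4 of the 8 genes, against 6.17% of the 21751 protein-coding promoters of the same length. Among protein-coding genes that passed the count filter it was held by 4.7% of 14466 promoters, by 6.01% of the 2944 promoters of genes higher after LPS in wildtype mice and by 4.28% of the 2639 of genes lower after LPS. The 150 bases nearest the start are shown for these 4 genes, 5′ to 3′ on the plus strand, because they place the motif; capitals mark AP-1. They are chr9:7347224-7347373 for *Mmp12*, chr9:7272364-7272513 for *Mmp13*, chr7:24161725-24161874 for *Plaur* and chr2:117941824-117941973 for *Thbs1*, on GRCm39.
Mmp12: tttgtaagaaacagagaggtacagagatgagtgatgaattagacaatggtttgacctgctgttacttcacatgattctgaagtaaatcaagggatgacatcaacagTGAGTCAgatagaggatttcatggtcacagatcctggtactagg
Mmp13: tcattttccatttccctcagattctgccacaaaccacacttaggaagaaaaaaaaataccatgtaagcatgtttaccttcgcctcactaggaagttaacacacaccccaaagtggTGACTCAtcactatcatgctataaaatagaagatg
Plaur: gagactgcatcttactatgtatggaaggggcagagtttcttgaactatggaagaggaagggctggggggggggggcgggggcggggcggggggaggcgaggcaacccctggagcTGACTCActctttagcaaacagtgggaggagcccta
Thbs1: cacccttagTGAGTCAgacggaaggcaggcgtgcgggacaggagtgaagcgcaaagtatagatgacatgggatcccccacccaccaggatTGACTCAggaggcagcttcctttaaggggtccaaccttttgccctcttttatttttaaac

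In *Mmp12*, *Mmp13* and *Plaur* the motif began 44, 35 and 36 bases before the start, and *Thbs1* held it at 141 and at 60 bases. In *Mmp13* the motif was followed by a TATA box (TATAAA), which began 16 bases before the start and was found in 1 of the 8 promoters and in 11.9% of all. *Thbs1* alone among the 8 genes matched the NF-kB consensus, found in 7.62% of all promoters. The interferon response motif, GAAA repeated after 2 bases of any kind, was in the promoters of *Mmp13* and *Plau* and in 3.32% of all promoters. The C/EBP motif, TTNCNNAA, was in those of *Timp1* and *Plaur* and in 36.9% of all promoters, and the STAT motif, TTCNNNGAA, was in none of the 8 and in 7.7% of all. *Mmp14* and *Timp2* had no match to any of the 6 motifs. These matches are letters in a window and say nothing about binding.

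The targeted gene was checked in every library. *Park7* had 262 to 533 counts in the 9 wildtype libraries and 9 to 90 counts in the 10 KO libraries, with no overlap. All libraries therefore matched their labelled genotype. Total counts per library ranged from 11936364 to 22788884, so that 3 counts, taken as the smallest signal of a library, correspond to 0.139 to 0.256 CPM (count values adjusted for each library's TMM-normalized size). This limit covers counting error only. Of the microglial markers, 9 of 10 were found in the table and all 9 were detected in every library. Their summed level was 25267 to 40571 CPM at baseline and 10565 to 17005 CPM after LPS. Monocyte markers (7 genes) summed to 20.1 to 59.2 CPM at baseline, 332 to 619 CPM in wildtype mice after LPS and 205 to 520 CPM in KO mice after LPS. Neutrophil markers (10 genes) summed to 416 to 700 CPM at baseline and 283 to 730 CPM after LPS. Markers of pericytes and fibroblasts (8 genes) ranged from 142 to 526 CPM at baseline and from 25.3 to 557 CPM after LPS. Those of oligodendrocytes (7 genes) ranged from 1092 to 10041 CPM at baseline and from 566 to 11445 CPM after LPS. Their highest values were in wildtype replicate 2 at baseline and KO replicate 1 after LPS. In bulk RNA a change in the share of cells of a type and a change in RNA per cell cannot be told apart.

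After LPS, 6 of the 8 genes were higher in both genotypes, namely the 3 metalloproteinases, *Timp1*, *Plaur* and *Thbs1*. *Timp2* was lower in both genotypes. *Plau* was lower on average, with overlap between LPS and baseline in both genotypes. By the rule for LPS against baseline, which asked for |log2FC| at or above 0.5 with an adjusted p-value below 0.05 in edgeR's quasi-likelihood fit over all genes, 6 members were called higher and 2 lower in wildtype mice, and 6 higher and 1 lower in KO mice. The same rule called 18.4% of all tested genes higher and 17.4% lower in wildtype mice, and 20.1% higher and 19% lower in KO mice. LPS and baseline groups did not overlap for 6 of 8 members in wildtype and 7 of 8 in KO mice, against 37.8% and 32.8% of all tested genes. The median log2FC of the 8 genes, which does not turn on the value of *Timp1*, was 3.02 in wildtype and 2.83 in KO mice, beside −0.06 and −0.01 over all tested genes. Since the genes were chosen for this response, and *Timp1* entered the test only through its LPS groups, nothing is read from these counts or medians.

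**Figure D1:**
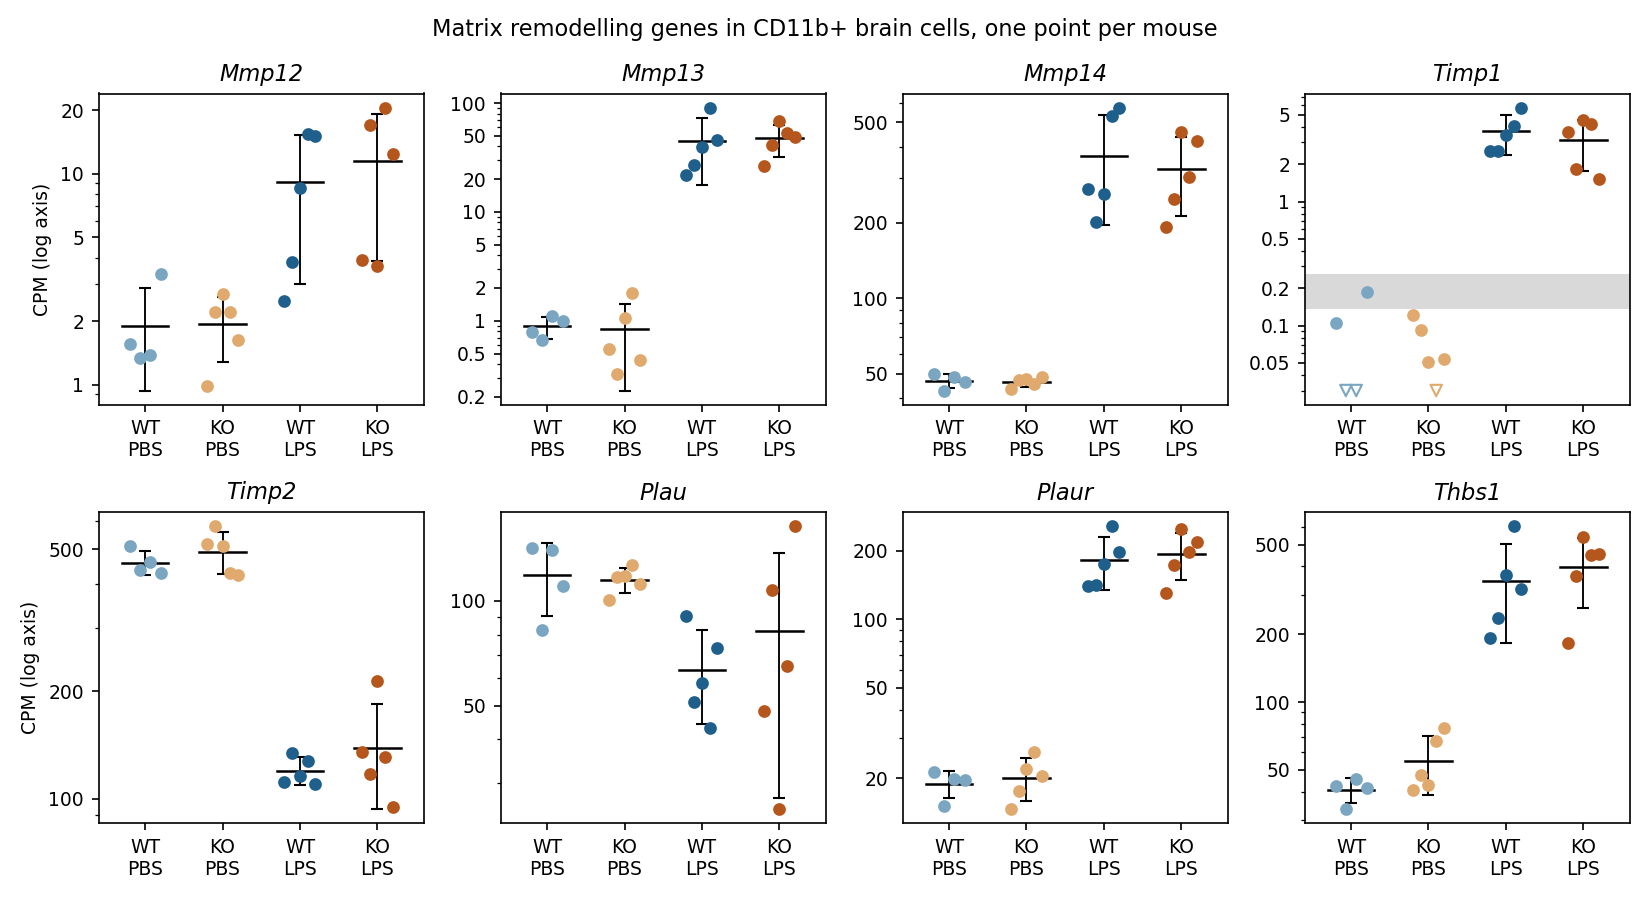
Level of each gene in CPM on a log axis, 1 point per mouse, for wildtype (WT) and KO mice with PBS or LPS; bars show the mean and SD where no library is at 0, open triangles mark libraries with 0 counts at an arbitrary height, and the grey band in the *Timp1* panel is the range of the level of 3 counts. LPS and baseline groups separate for every gene but *Mmp12* in wildtype mice and *Plau* in both genotypes, and no gene separates KO from wildtype.

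Among the proteases, *Mmp13*, the collagenase, showed the steepest difference. At baseline it was at 0.782, 0.667, 1.12 and 0.993 CPM in wildtype mice and 0.552, 0.323, 1.07, 1.78 and 0.432 CPM in KO mice, or 7 to 34 counts. After LPS it was at 21.8, 26.7, 39.6, 90.8 and 46.2 CPM in wildtype mice and 26.6, 41.1, 68.7, 53.0 and 49.0 CPM in KO mice. Every LPS-treated mouse was thus above every baseline mouse, and wildtype replicate 4 had the highest value of all. The log2FC was 5.66 ± 0.47 (SE) in wildtype and 5.83 ± 0.44 in KO mice, about 50.4-fold and 56.9-fold.

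*Mmp14*, the membrane-type protease, was the most abundant of the 3 and was tightly held at baseline, at 50.05, 43.0, 48.8 and 46.5 CPM in wildtype mice and 43.7, 47.1, 47.6, 45.5 and 48.8 CPM in KO mice. The LPS groups were at 271, 201, 261, 528 and 573 CPM in wildtype mice and 192, 248, 459, 305 and 422 CPM in KO mice. The groups did not overlap. The coefficient of variation, which is the SD as a share of the mean, went from 6.60% and 4.29% at baseline to 46.5% and 34.8% after LPS in wildtype and KO mice. The log2FC was 2.96 ± 0.27 and 2.80 ± 0.26.

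*Mmp12*, the elastase, was low throughout and varied widely from mouse to mouse after LPS. At baseline it was at 1.56, 1.33, 1.38 and 3.35 CPM in wildtype mice and 0.982, 2.22, 2.69, 2.20 and 1.62 CPM in KO mice. After LPS it was at 2.50, 3.81, 8.55, 15.5 and 15.2 CPM in wildtype mice and 3.88, 16.97, 3.65, 20.6 and 12.4 CPM in KO mice. Wildtype replicate 1 after LPS lay below wildtype replicate 4 at baseline, whereas the KO groups did not overlap. The log2FC was 2.25 ± 0.57 in wildtype and 2.56 ± 0.53 in KO mice, with coefficients of variation of 67.1% and 66.4% after LPS.

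Of the inhibitors, *Timp1* was near absent at baseline, with 2, 0, 0 and 3 counts in wildtype mice and 2, 2, 1, 0 and 1 counts in KO mice. After LPS it had 43, 39, 57, 63 and 67 counts in wildtype mice and 65, 32, 76, 76 and 21 counts in KO mice. All baseline libraries were at or under 3 counts and all LPS libraries above. Summed over the mice of a group and scaled by library size, 269 against 5 counts gave a 47.6-fold higher level in wildtype mice (95% exact binomial interval 20.2 to 148), and 270 against 6 counts a 51.2-fold higher level in KO mice (23.2 to 141). These intervals cover counting error only. Wildtype replicate 4 held 3 of the 5 baseline counts, and without it the ratio was 90.5 (24.8 to 751).

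*Timp2* went the other way and was the most abundant member at baseline. It was at 509, 436, 460 and 429 CPM in wildtype mice and 518, 580, 510, 429 and 422 CPM in KO mice. With LPS the values were 111, 135, 116, 128 and 110 CPM in wildtype mice and 135, 118, 214, 131 and 95.1 CPM in KO mice. Every LPS-treated mouse was below every baseline mouse, with KO replicate 3 the highest after LPS. The log2FC was −1.93 ± 0.17 and −1.83 ± 0.16, or 0.262 and 0.282 of the baseline level.

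*Plaur*, the urokinase receptor, was at 21.3, 15.2, 19.8 and 19.6 CPM in wildtype mice and 14.7, 17.6, 21.9, 26.1 and 20.5 CPM in KO mice at baseline. With LPS it reached 141, 141, 176, 257 and 197 CPM in wildtype mice and 131, 173, 250, 197 and 219 CPM in KO mice. The groups did not overlap and the response was nearly the same in both genotypes, with a log2FC of 3.26 ± 0.20 in wildtype and 3.26 ± 0.19 in KO mice. *Thbs1* was at 42.4, 33.5, 45.6 and 41.4 CPM in wildtype mice and 40.6, 47.3, 42.7, 67.2 and 76.8 CPM in KO mice at baseline. The LPS groups were at 192, 236, 366, 604 and 319 CPM in wildtype mice and 183, 363, 541, 450 and 454 CPM in KO mice. Again every LPS-treated mouse was above every baseline mouse. The log2FC of *Thbs1* was 3.07 ± 0.31 and 2.86 ± 0.29.

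*Plau*, which encodes urokinase itself, did not follow its receptor. At baseline it was at 142, 82.4, 140 and 111 CPM in wildtype mice and 101, 117, 118, 127 and 112 CPM in KO mice. With LPS its values were 90.8, 51.4, 58.2, 43.1 and 73.3 CPM in wildtype mice and 48.2, 107.6, 25.2, 65.2 and 164 CPM in KO mice. In wildtype mice 4 of 5 values after LPS were below all baseline values. In KO mice 3 of 5 were below, and KO replicate 5 was above all. The log2FC was −0.91 ± 0.36 in wildtype and −0.49 ± 0.34 in KO mice. By the rule above *Plau* was counted as lower in wildtype mice in the fit of all libraries, but not in 14 of the 19 fits that left out 1 library, while the log2FC stayed between −1.07 and −0.79 in those 19 fits. These left out any of the 5 KO mice at baseline, replicate 2 or 4 of the KO mice after LPS, replicate 2, 3, 4 or 5 of the wildtype mice after LPS, or replicate 1, 3 or 4 of the wildtype mice at baseline. In KO mice the log2FC was −0.90 and passed the rule without replicate 5 of the LPS group.

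**Figure D2:**
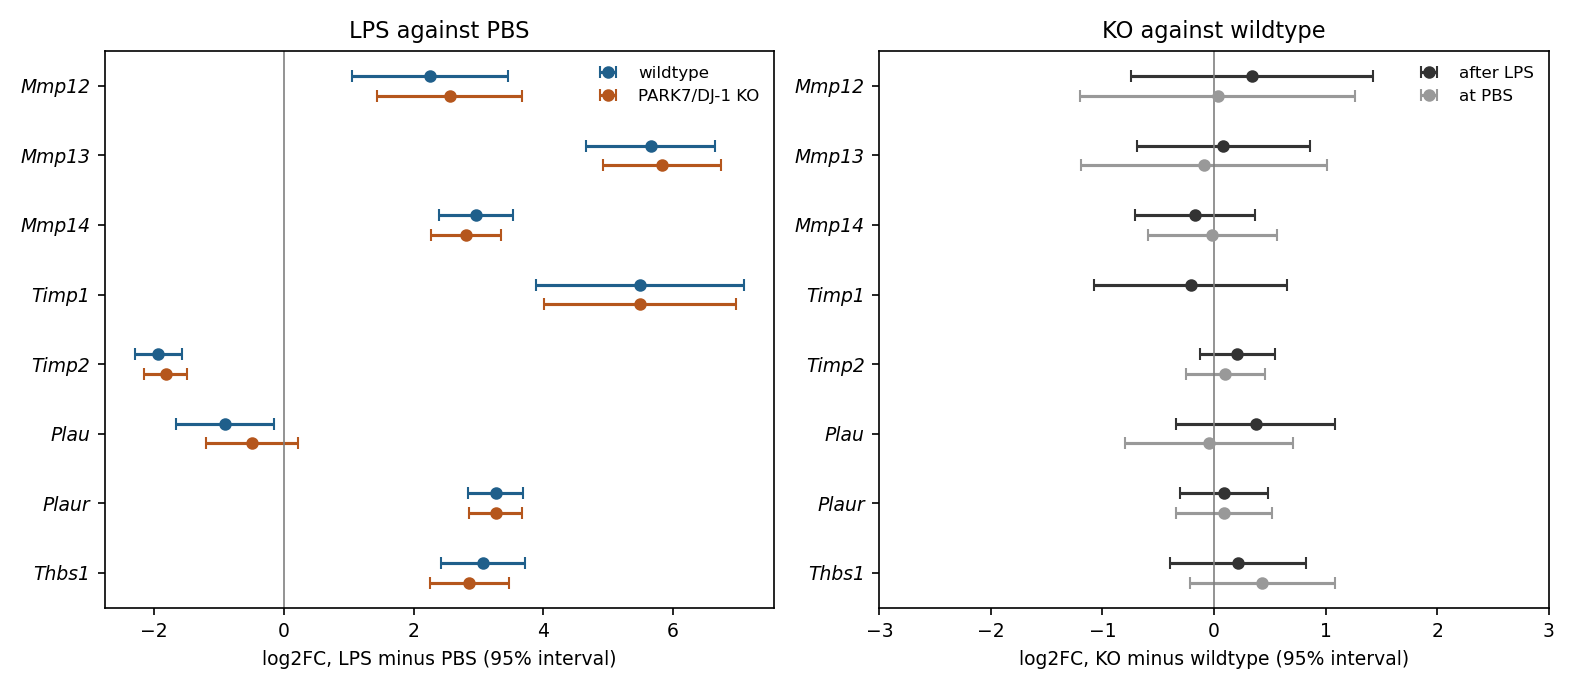
Log2FC of each gene with its 95% interval from edgeR's quasi-likelihood fit, LPS minus PBS in each genotype (left) and KO minus wildtype after LPS and at PBS (right). On the left 6 genes lie above 0 and *Timp2* below 0 in both genotypes; on the right every interval spans 0, and *Timp1* at PBS is left out because its libraries held at most 3 counts.

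The order of the levels was compared per kilobase of exon, in CPM per kb. The length is that of all annotated exons of a gene joined over its transcripts, which can exceed that of any single transcript. At baseline in wildtype mice *Timp2* led with 103 ± 8.11 (SD, n = 4), followed by *Plau* with 46.3 ± 10.96, and both stood apart from all genes below them. *Mmp14* (7.64 ± 0.50), *Thbs1* (6.31 ± 0.79) and *Plaur* (4.75 ± 0.66) came next and each overlapped its neighbour. *Mmp13* (0.333 ± 0.076) and *Mmp12* (0.264 ± 0.13) overlapped each other, and *Timp1* was last with 0.037 ± 0.046. After LPS in wildtype mice *Mmp14* (59.5 ± 27.7), *Thbs1* (53.1 ± 24.9) and *Plaur* (45.6 ± 12.04, n = 5) were highest, each overlapping the next. *Timp2* (26.9 ± 2.41) and *Plau* (24.7 ± 7.37) had fallen behind them in the order. *Mmp13* (16.8 ± 10.2) followed, and *Timp1* (1.88 ± 0.67) and *Mmp12* (1.26 ± 0.84) closed the order. Of these, *Timp2* and *Plau*, *Plau* and *Mmp13*, and *Timp1* and *Mmp12* overlapped. *Thbs1* also overlapped *Timp2*, *Plau* overlapped *Plaur*, and *Mmp13* overlapped *Thbs1* and *Mmp14*, so the leading 3 genes were not set apart from those that followed. The last place of *Mmp12* depends on its length of 7.24 kb, against 1.96 kb for *Timp1*. In CPM the wildtype means after LPS were 9.10 for *Mmp12* and 3.67 for *Timp1*. In KO mice after LPS the leading 3 were the same genes with *Thbs1* (61.6 ± 21.02) before *Mmp14* (52.7 ± 18.3), and every neighbour in the order overlapped the next except *Mmp13* and *Timp1*.

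The ratio of a protease to its partner in the same library turned over with this order. *Mmp14* per kb was 0.0712 to 0.0785 times *Timp2* in wildtype mice at baseline and 0.0588 to 0.0838 times in KO mice. After LPS it was 1.08 to 3.78 times *Timp2* in wildtype mice and 1.03 to 3.21 times in KO mice, above 1 in all 10 libraries. The ratio of *Plau* to *Plaur* was 8.47 to 10.97 in wildtype and 7.57 to 10.7 in KO mice at baseline. After LPS it was 0.261 to 1.01 in wildtype and 0.157 to 1.17 in KO mice. *Timp1* made up 4.17% to 10.6% of the summed level of *Timp1* and *Timp2* after LPS in wildtype mice and 3.42% to 6.88% in KO mice. These ratios restate the levels above and carry no test.

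**Figure D3:**
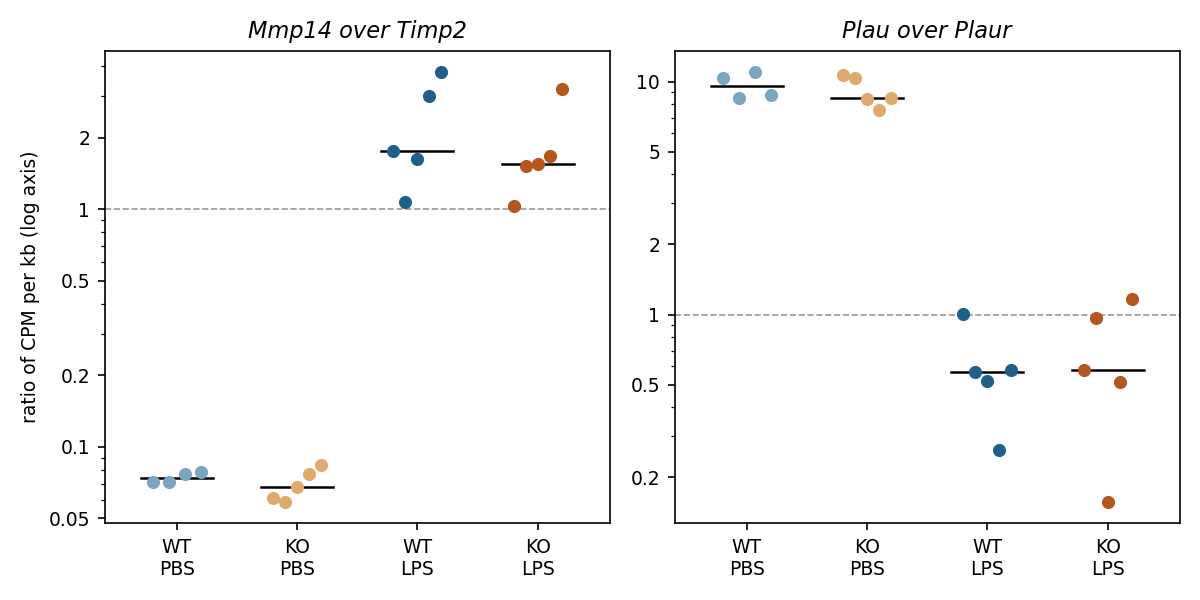
Ratio of the levels per kb of *Mmp14* and *Timp2* (left) and of *Plau* and *Plaur* (right) on a log axis, 1 point per mouse, with the group median as a bar and a dashed line at 1. The first ratio rises from below 0.1 at baseline to above 1 after LPS, and the second falls from above 7 to about 1 or below.

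Whether the loss of DJ-1 changed these genes was tested after LPS and at baseline. By the rule for KO against wildtype, which asked for |log2FC| at or above 0.5 with an unadjusted p-value below 0.05 in edgeR, 0 of the 8 genes were called after LPS, where the rule called 1.31% of all tested genes. At baseline 0 of 8 were called, against 0.8% of all tested genes. No member had an unadjusted p-value under 0.05 in edgeR in either comparison, against 482 of 18739 tested genes after LPS and 195 at baseline. DESeq2 also called 0 of 8 in both, and its share over all genes is not given here. Groups without overlap between KO and wildtype mice were found for 0 of 8 members in each comparison, against 0.219% of all tested genes after LPS and 0.971% at baseline.

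After LPS the KO mice were at 11.5 ± 7.63 (SD, n = 5) and the wildtype mice at 9.10 ± 6.11 CPM for *Mmp12*, a log2FC of 0.34 (95% interval −0.74 to 1.42, adjusted p = 1.00 in edgeR). For *Mmp13* the means were 47.7 ± 15.5 and 45.0 ± 27.4 CPM, a log2FC of 0.08 (−0.69 to 0.86). *Mmp14* was at 325 ± 113 in KO and 367 ± 171 CPM in wildtype mice, a log2FC of −0.17 (−0.71 to 0.36). The 3 proteases thus differed by less than the spread between mice, and the interval of each still includes differences of more than 0.5 in size. *Timp1* was at 3.16 ± 1.40 and 3.67 ± 1.31 CPM (log2FC −0.21, −1.07 to 0.65). *Timp2* was at 139 ± 45.0 and 120 ± 10.8 CPM (log2FC 0.21, −0.13 to 0.55), and the larger KO spread came with KO replicate 3 at 214 CPM. *Plaur* was at 194 ± 45.4 and 182 ± 48.1 CPM (log2FC 0.09, −0.31 to 0.49), and *Thbs1* at 398 ± 136 and 343 ± 161 CPM (log2FC 0.21, −0.39 to 0.82). The adjusted p-value from edgeR was 1.00 for each of the 8 genes.

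*Plau* was the gene whose call changed with a single mouse. After LPS the mean of the KO mice was 82.0 ± 54.8 CPM and that of the wildtype mice 63.4 ± 18.9 CPM, and its log2FC was 0.37 (−0.34 to 1.08, unadjusted p = 0.289 in edgeR). Without KO replicate 3, the mouse with the lowest *Plau* at 25.2 CPM, the log2FC was 0.60 with an unadjusted p = 0.0475, which passed the rule, and an adjusted p = 1.00. Without KO replicate 5, the mouse with the highest value, it was −0.04. KO replicate 5 had the lowest summed level of pericyte and fibroblast markers of all 19 libraries (25.3 CPM) and KO replicate 3 had 305 CPM. Their part in the difference was not tested. With 1 library left out, the differences of other members after LPS moved about as far, over 0.016 to 0.62 for *Mmp12*, −0.091 to 0.51 for *Mmp13* and 0.063 to 0.52 for *Thbs1*, and none of these passed the rule.

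At baseline the intervals were as wide. *Thbs1* had the largest difference, with means of 54.9 ± 16.1 CPM (KO, n = 5) and 40.7 ± 5.13 CPM (wildtype, n = 4), a log2FC of 0.43 (−0.22 to 1.08, unadjusted p = 0.184 in edgeR), and came mainly from KO replicates 4 and 5. The log2FC was 0.03 (−1.20 to 1.27) for *Mmp12*, −0.09 (−1.19 to 1.01) for *Mmp13*, −0.02 (−0.59 to 0.56) for *Mmp14*, 0.10 (−0.25 to 0.46) for *Timp2*, −0.05 (−0.80 to 0.71) for *Plau* and 0.09 (−0.34 to 0.52) for *Plaur*. For *Timp1*, with at most 3 counts in each library, a difference was not detectable at this depth.

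The interaction of genotype and LPS, which asks whether LPS changed a gene by another amount in KO than in wildtype mice, was called for 0 of the 8 genes at an adjusted p-value under 0.05 in edgeR, as for 0% of all tested genes. At an unadjusted p-value under 0.05 it was 0 of 8 members, against 180 of 18739 genes. The largest value among the members was that of *Plau*, 0.42 ± 0.49 (SE, 95% interval −0.62 to 1.45, KO response minus wildtype response), and those of *Plaur* and *Timp2* were −0.00049 ± 0.28 and 0.11 ± 0.23. The order rests on single libraries, since with 1 library left out the interaction ranged over 0.0047 to 0.65 for *Plau* and reached 0.66 for *Mmp13* and 0.59 for *Mmp12*.

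The spread between mice within a group was not the same for all members. Over the 19 libraries, deviations of log2 CPM from the group means of *Plaur* and *Thbs1* had a Pearson r of 0.87, those of *Plaur* and *Mmp13* 0.85, and those of *Plaur* and *Mmp14* 0.76. *Plau* and *Timp2* went apart, with r = −0.79. *Timp1* followed the proteases weakly (0.051 with *Mmp13*, 0.29 with *Mmp14*) and had its largest values with *Plau* (−0.52) and *Timp2* (0.50). Its values depend on the prior count, since 9 of its 19 libraries had 0 to 3 counts and its log2 CPM moved by up to 2 with a prior count of 0.5. These values are descriptions over libraries that share depth and makeup, and carry no p-value.

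The same deviations were set beside the summed marker lists of each library. Each sum adds CPM over the genes of a list, so an abundant gene weighs more than a rare one. *Thbs1* and *Plaur* went with the neutrophil list (r = 0.86 and 0.83) and with the monocyte list (0.72 and 0.74). *Plau* went against the lists of pericytes and fibroblasts (−0.81), astrocytes (−0.75) and endothelial cells (−0.72), whereas *Timp2* went with those of astrocytes (0.55) and of pericytes and fibroblasts (0.53). *Mmp13* and *Mmp14* had r = 0.60 and 0.55 with the neutrophil list and 0.58 and 0.56 with the monocyte list. *Thbs1* had 0.69 with the lymphocyte list, *Plau* had −0.61 with the neuron list and −0.50 with the oligodendrocyte list, which had −0.55 with *Plaur*, and no list reached 0.5 in size for *Mmp12* or *Timp1*. At baseline and after LPS the neutrophil sums overlapped, while the monocyte sums did not. The part of these cells in the values of the members was not tested.

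**Figure D4:**
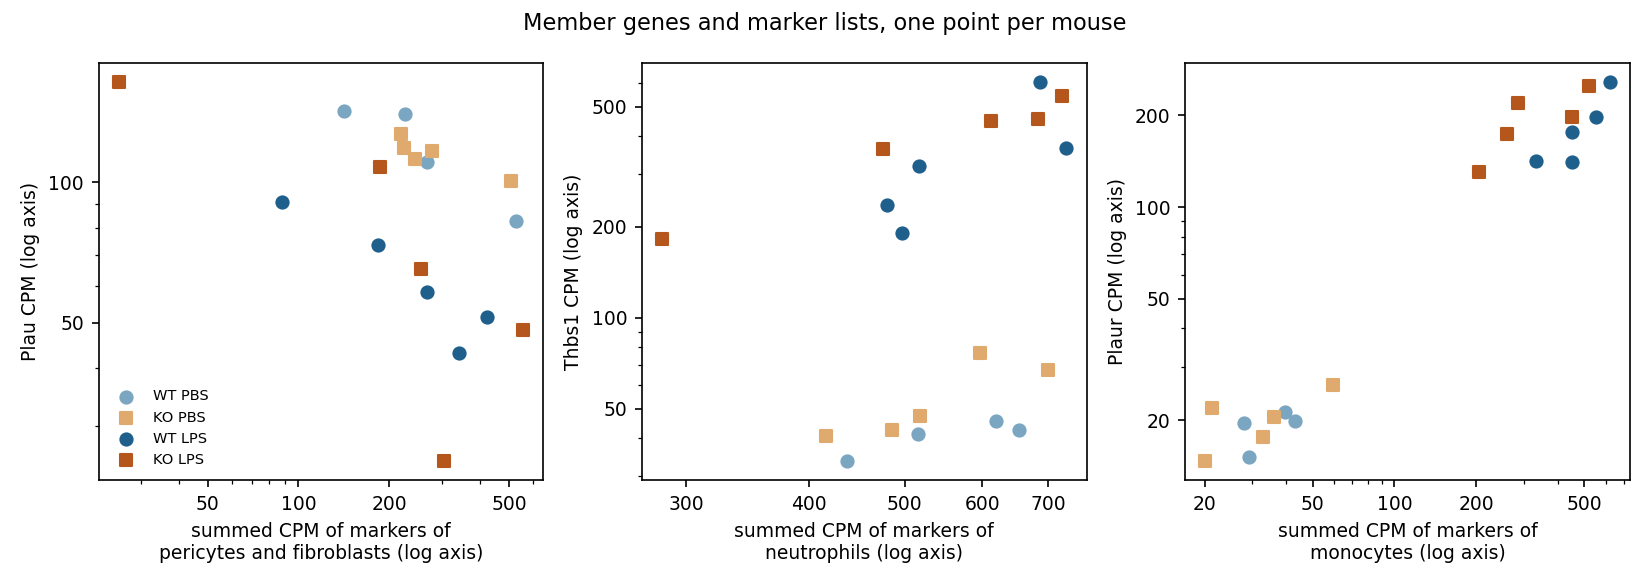
Level of *Plau*, *Thbs1* and *Plaur* against the summed level of a marker list in the same library, both in CPM on log axes, 1 point per mouse. After LPS *Plau* is highest in the library with the lowest pericyte and fibroblast sum (KO replicate 5). LPS and baseline libraries overlap in the neutrophil sum and not in *Thbs1*, and *Plaur* and the monocyte sum are both higher in every LPS library. The part of these cells in the levels was not tested.

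The 2 genes whose log2 CPM over all 19 libraries was most like each member were sought among the tested genes. For *Mmp13* they were *Plaur* and *Socs3* (r = 0.993 each), for *Mmp14* *Irak3* and *Heatr9* (0.994 and 0.993), for *Plaur* *Fgr* and *Hcar2* (0.994 each) and for *Thbs1* *Hdc* and *Tank* (0.986 and 0.983). *Timp1* was most like *Isg20* and *Gbp2* (0.983 each), *Timp2* like *Tpcn1* and *Txndc16* (0.992 each), *Plau* like *Uhrf2* and *Pld1* (0.937 and 0.931) and *Mmp12* like *Gm28651* and *Exoc3l4* (0.927 and 0.907). With the group means removed, the closest genes were *Cxcl10* for *Mmp13* (0.849), *Il6* for *Mmp12* (0.8496), *Cd80* for *Mmp14* (0.981), *Lilrb4b* for *Plaur* (0.928) and *Mxd1* for *Thbs1* (0.918). For *Timp1*, *Timp2* and *Plau* they were *Pml* (0.775), *Tm7sf3* (0.898) and *Dapk3* (0.965).

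The rest of the pathway was listed by family, 103 genes with no member among them, of which 92 were tested. In wildtype mice 29 were higher and 24 lower after LPS, and in KO mice 32 higher and 23 lower, with a median log2FC of 0.18 and 0.06 beside −0.06 and −0.01 over all genes. These are 31.5% higher and 26.1% lower in wildtype mice and 34.8% and 25% in KO mice, beside the 18.4% and 17.4%, and 20.1% and 19%, of all tested genes given above. By family, the share called higher in wildtype mice ran from 12.5% of the thrombospondins and receptors to 50% of the plasminogen activation genes, and the share called lower from 15% of the other matrix and cross-linking genes to 38.5% of the metalloproteinases. The laminin chains had 18.2% higher and 27.3% lower in wildtype mice. KO against wildtype called 0 of the 92 after LPS and at baseline, where the rule called 1.31% and 0.8% of all tested genes. At an unadjusted p-value under 0.05 in edgeR it was also 0 of 92 in both. Over all 18739 tested genes it was 482 after LPS and 195 at baseline. With shares this low, 0 of 92 says little about these genes. Of the 20 other metalloproteinases 13 were tested, and 5 were higher and 5 lower in wildtype mice, 5 higher and 4 lower in KO mice. Within the chromosome 9 cluster, *Mmp3*, a stromelysin gene, went from 0 to 8 counts per library at baseline to 19 to 987 counts after LPS. It passed the count filter only through the LPS groups. Summed counts gave a 79.5-fold higher level in wildtype mice (95% counting interval 46.3 to 150), and 2072 counts after LPS stood against 1 at baseline in KO mice. Wildtype replicate 4 held 8 of the 13 baseline counts of *Mmp3*, and without it the ratio in wildtype mice was 157 (67.1 to 485). *Mmp1a*, *Mmp7* and *Mmp20* of the same cluster had 0 counts in all 19 libraries. *Mmp19* rose in both genotypes (log2FC 4.69 ± 0.19 and 4.33 ± 0.18, adjusted p = 6.73e-11 and 2.18e-11), and *Mmp11* (−2.21 ± 0.44 and −2.26 ± 0.42) and *Mmp23* (−2.04 ± 0.46 and −1.35 ± 0.42) fell.

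**Figure D5:**
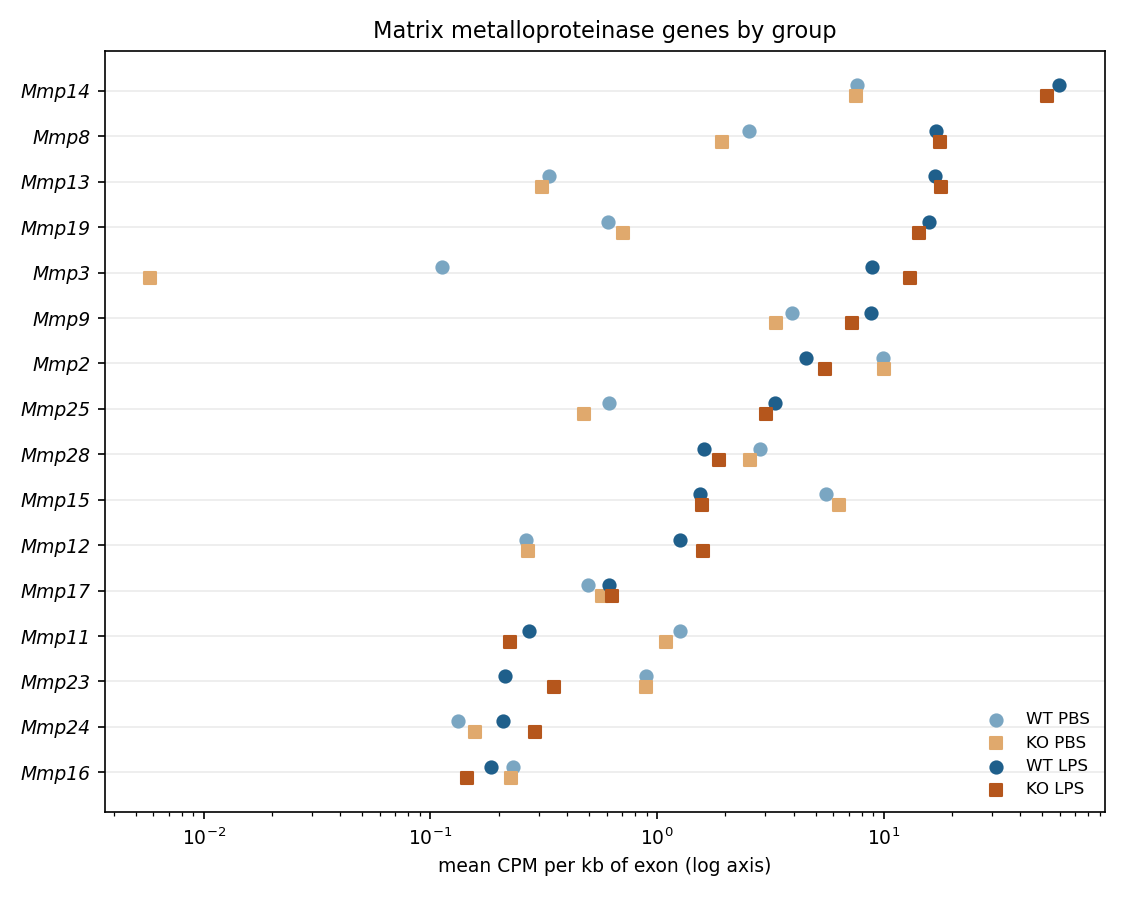
Mean level of the metalloproteinase genes with at least 10 counts in some library, in CPM per kb of exon on a log axis, for the 4 groups, ordered by the wildtype LPS mean. *Mmp14* is the highest after LPS, *Mmp13* and *Mmp3* have the widest gap between baseline and LPS, and the KO and wildtype points of each treatment lie near each other except for *Mmp3* at baseline, which rests on at most 8 counts a library.

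Of the 8 other inhibitors and surface partners, 3 were higher and 3 lower in each genotype. *Cd44*, the hyaluronan receptor, rose (log2FC 4.29 ± 0.37 in wildtype, adjusted p = 2.06e-07), as did *A2m* (3.48 ± 0.66), while *Reck*, a membrane inhibitor of metalloproteinases, and *Lrp1*, a receptor that clears protease complexes, fell (−1.41 ± 0.28 and −1.29 ± 0.25). Of 8 tested genes of plasminogen activation, 4 were higher and 2 lower in each genotype. *Serpinb2*, an inhibitor of urokinase, was at 1 to 11 counts at baseline and 15 to 64 after LPS (log2FC 3.28 ± 0.54 in wildtype), and *Anxa2*, part of a plasminogen receptor, rose by 2.64 ± 0.23. *Serpine2*, a further inhibitor of urokinase, and *Plgrkt*, a plasminogen receptor, fell (−1.28 ± 0.19 and −0.94 ± 0.18). Of the 8 other thrombospondins and receptors, 1 was higher and 3 lower in wildtype mice and 1 higher and 4 lower in KO mice. *Comp* rose (1.78 ± 0.28), and *Cd36*, the thrombospondin receptor, and *Itgb3* fell (−2.54 ± 0.26 and −1.44 ± 0.18).

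Of 24 tested ADAM and ADAMTS proteases, 7 were higher and 5 lower in wildtype mice and 9 higher and 4 lower in KO mice, among them *Adamts9* (4.88 ± 0.54 in wildtype) and *Adamts8* (4.42 ± 0.84) upwards and *Adamts16* (−5.93 ± 0.40) downwards. *Adamts12*, also called lower, had 3 to 13 counts in wildtype mice at baseline and 0 to 2 after LPS. Of 11 laminin chains 2 were higher and 3 lower in each genotype, with *Lamb3* at 2.08 ± 0.59 and *Lama1* and *Lama3* at −2.13 ± 0.55 and −2.07 ± 0.43. Of 20 other matrix and cross-linking genes 7 were higher and 3 lower in wildtype mice and 8 higher and 3 lower in KO mice. *Spp1*, osteopontin, rose by 4.77 ± 0.21 and *Loxl4* by 3.32 ± 0.75, and *Loxl3* and *Nid2* fell (−1.48 ± 0.18 and −1.20 ± 0.31). Each gene named with a log2FC in these families was picked among those that passed the rule in both genotypes, so its call is part of the choice.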

How the data were processed

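Gene counts of CD11b+ brain cells, sorted by MACS from 19 mice, were used. Per the labels and the study's methods, the authors removed olfactory bulb and cerebellum after perfusion, made stranded libraries from ribosome-depleted total RNA, trimmed reads with Cutadapt (0.17.4 in the submitters' processing notes), and mapped and counted them with STAR 2.7.9a on GRCm39 (the strand setting of the count is not given in the sources used here). The deposited values are raw counts per Ensembl gene, not normalized by the authors. Symbols and positions came from GENCODE M39 on the same build, which named 56236 of 56980 genes. Promoters run 250 bases before the annotated canonical start.

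Fits were made with edgeR 4.0.16 under R 4.3.3 (filterByExpr with a minimum count of 10 and a minimum total of 15, TMM, 1 quasi-likelihood fit of all 19 libraries with 4 groups). P-values were adjusted by the Benjamini-Hochberg method over all 18739 tested genes, and the SE is that of the fitted coefficient. Log2 CPM used a prior count of 2. The labels name the mice as separate samples, and no library pair of a group agreed within sampling noise (chi-square of at least 6.50 per degree of freedom over genes with 10 or more counts in the pair). The fit was tested on simulated counts. Alternatives were no filter, at least 10 counts in every library, DESeq2 size factors, DESeq2 1.42.0, the 2 groups compared only, the replicate number as a block, other thresholds and each library left out.

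The members, lists and motifs were chosen with earlier results of these data known. Named genes were the 8 members, *Park7*, the 2 genes most like each member by each measure (the second measure is given for 1 gene each), and from each list the 2 genes per direction with the largest log2FC in wildtype mice among those called in both genotypes. Outside this rule, *Mmp1a*, *Mmp1b*, *Mmp7* and *Mmp20* of the chromosome 9 cluster and *Syn1*, *Cep295nl* and *Gm56768*, which overlap members, were named after their values were seen. The ratios of *Timp1* and *Mmp3* without 1 wildtype baseline library were added after seeing the data. A gene that this rule also takes is not reported here.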

Additional observations from a re-analysis of the deposited data

Results flagged for a closer look

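In 32 groups of 4 or 5 libraries, formed by 8 genes and 4 groups, 1 library stood far from the others of its group by Dixon's criterion on log2 CPM. Wildtype replicate 4 at baseline had *Mmp12* at 3.35 CPM, or 54 counts, where the other 3 wildtype baseline libraries had 1.33 to 1.56 CPM. About 1 in 20 such groups is singled out by chance.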

How the results depend on the processing

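In every alternative fit 0 of the 8 genes were called for KO against wildtype at baseline and for the interaction, also with the other threshold. After LPS the count was 0 to 1 when a library was left out, the 1 being *Plau* without KO replicate 3. The counts after LPS were 6 to 8 in wildtype and 5 to 8 in KO mice; the lowest came with at least 10 counts in every library, which removed *Timp1* and *Mmp13* from the test. That filter also gave the fewest pathway genes (23 higher and 19 lower in wildtype, 25 and 18 in KO mice).

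Several differences near 0 changed sign. The interaction of *Plaur* was 0.012 without the low-count filter, 0.013 with at least 10 counts in every library and 0.031 with DESeq2 size factors and with DESeq2. With 1 library left out, KO minus wildtype after LPS ranged over −0.091 to 0.51 for *Mmp13*, −0.33 to 0.045 for *Mmp14*, −0.38 to 0.0018 for *Timp1*, −0.00079 to 0.32 for *Timp2*, −0.042 to 0.60 for *Plau* and −0.020 to 0.24 for *Plaur*. At baseline it ranged over −0.11 to 0.46 for *Mmp12*, −0.57 to 0.13 for *Mmp13*, −0.053 to 0.015 for *Mmp14*, −0.18 to 0.053 for *Plau* and −0.022 to 0.18 for *Plaur*. The interaction ranged over −0.12 to 0.59 for *Mmp12*, −0.042 to 0.66 for *Mmp13*, −0.31 to 0.062 for *Mmp14*, −0.10 to 0.22 for *Timp2*, −0.11 to 0.16 for *Plaur* and −0.37 to 0.086 for *Thbs1*. The cause was not tested.

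With the replicate number as a block, the difference of *Mmp12* at baseline was −0.037 and the interaction of *Plaur* 0.075, and 8 and 7 members were called after LPS in wildtype and KO mice, as without it. The labels do not say what a number marks, and not every same-numbered pair had a correlation of deviations above 0.1 in any comparison. A library was closest to its own number in 5 of 8 and 6 of 10 cases between LPS and baseline in wildtype and KO mice (mean r 0.33 and 0.25), but in 1 of 10 and 3 of 8 between genotypes after LPS and at baseline (−0.10 and −0.0060). Depth limits *Timp1*, whose fitted log2FC after LPS in wildtype mice was 5.49 and became 6.34 without wildtype replicate 4 at baseline, and whose log2 CPM moved by up to 2 with a prior count of 0.5.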
